A study of Mus musculus domesticus with 18 samples.

Results

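Bile acid synthesis and transport in the liver was followed here through 10 genes. Cyp7a1, Cyp8b1, Cyp27a1 and Cyp7b1 encode the cytochrome P450 enzymes that turn cholesterol into bile acids. Slc27a5 and Baat encode the enzymes that conjugate bile acids, Slc10a1 and Abcb11 the transporters that carry them through the hepatocyte, and Nr1h4 and Nr0b2 the nuclear receptors that regulate the pathway. Every probe set annotated to the symbol of a single member was taken, which gave 16 probe sets for the 10 genes, and 0 were shared with another symbol. They are 16 of the 45037 probe sets, and 10 of the 18193 named genes, that were measured.

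The samples were livers of 18 male house mice, Mus musculus domesticus, caught in the wild. High altitude mice came from La Paz, Bolivia, at 3600 m, and low altitude mice from Lima, Peru, at 100 m. Each altitude was sampled at 3 trapping locations, called A, B and C within that altitude, with 3 mice and 3 arrays per location, so 9 mice stood against 9. A mouse is named by its altitude, location letter and number; the high A mice are numbered 1, 2 and 4. The locations of the 2 altitudes share only letters. Altitude coincided with city and population and these cannot be told apart. The labels also give C57BL/6J as the strain, which goes against their description of wild mice. The sources used here give no age, time of death or feeding state.

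Bile acids are made from cholesterol in hepatocytes by a classic pathway that opens with Cyp7a1 and an alternative pathway that opens with Cyp27a1 and continues with Cyp7b1. They are exported into bile, taken up again from the gut and returned to the liver in portal blood. Bile acids bind the receptor encoded by Nr1h4 (FXR), which in liver induces Nr0b2 (SHP), a repressor of Cyp7a1, and in the gut induces Fgf15, a hormone that also lowers Cyp7a1 through its hepatic receptor. Cyp7a1 transcripts are known to vary with time of day and with meals.

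All values are the authors' log2 levels after robust multi-array averaging (RMA), which makes arrays comparable within a probe set but not probe sets with each other. Array-to-array correlations ran from 0.976 to 0.994. The hepatocyte list had 9 of 10 markers measured, all 9 brighter than the median probe set, and its mean level in a mouse lay between 13.76 and 13.99 at high and between 13.80 and 14.04 at low altitude. A difference in a whole liver may mean fewer cells of a type or less RNA per cell, and these cannot be told apart in such samples. Over the whole table limma called 134 probe sets for altitude, 77 higher and 57 lower at high altitude, at a Benjamini-Hochberg adjusted p under 0.05. These are 0.298% of all probe sets. The median standard error of an altitude difference was 0.08 log2 units, and the number of arrays limits the precision.

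None of the 10 genes passed the test between altitudes: 0 of 16 probe sets were called, against the background of 0.298%. At an unadjusted p under 0.05 there were 2 of 16, 1 each of Cyp7a1 and Slc27a5, against 10.1% of all probe sets. The 10 genes, each by its brightest probe set, had 7 positive and 3 negative differences of high minus low altitude, with a median of 0.06 log2 units. Over all 18193 named genes there were 9390 positive and 8803 negative differences, with a median of 0.00442. In 0 of the 16 probe sets did all 9 high altitude mice lie apart from all 9 low altitude mice, as was the case for 0.0822% of all probe sets. The 3 high location means lay apart from the 3 low ones for 1 of the 16, Slc27a5, against 13.6% of all probe sets.

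**Figure D1:**
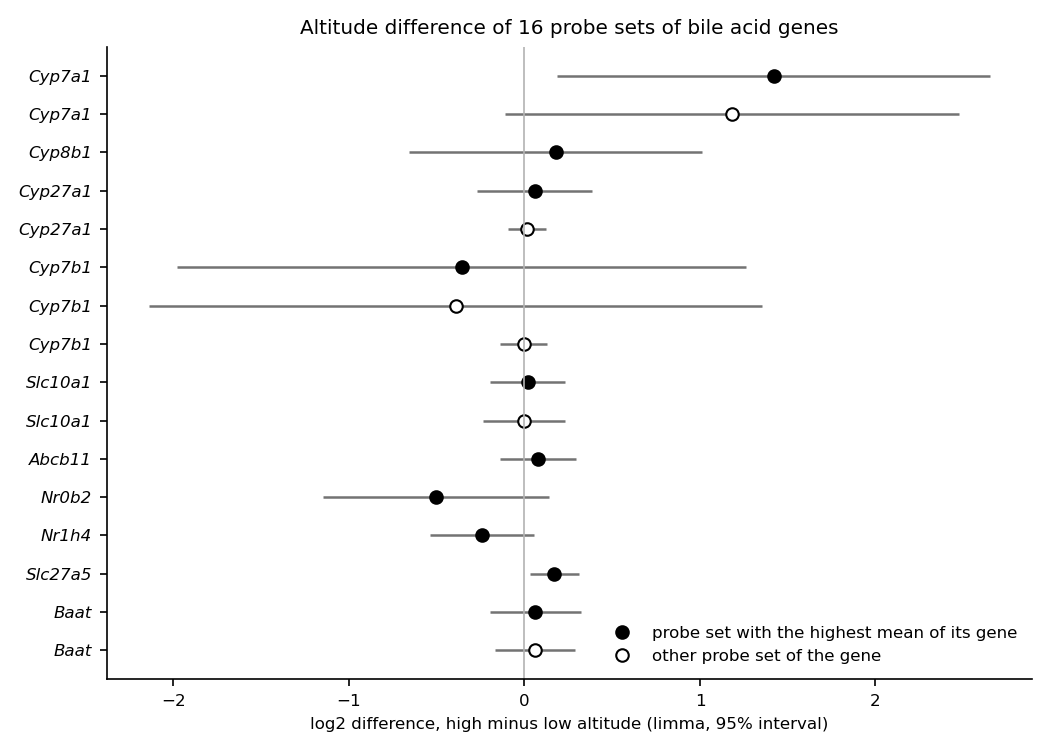
Altitude differences of the 16 probe sets. Each point is the log2 difference of high minus low altitude on the horizontal axis with its 95% interval from limma, filled for the probe set with the highest mean of its gene and open for the others; the widest intervals belong to the brighter probe sets of Cyp7b1 and to Cyp7a1, whose differences were -0.36 and 1.42.

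Cyp7a1, the rate-limiting enzyme of the classic pathway, had the difference farthest from 0 among the members. Its level was 11.82, 10.55 and 12.12 in the mice of high A, 12.20, 12.12 and 12.29 in high B, and 10.32, 8.13 and 9.74 in high C. It was 11.32, 10.31 and 11.01 in low A, 8.14, 8.37 and 8.81 in low B, and 10.54, 7.61 and 10.40 in low C. All 3 mice of high B lay above every low altitude mouse, whereas high C lay within the low altitude range, so the altitudes overlapped. High altitude mice averaged 11.03 ± 1.45 and low altitude mice 9.61 ± 1.38 (SD, n = 9 each), a difference of 1.42 ± 0.59 (SE), or 2.68-fold, with a 95% interval of 0.19 to 2.65 and an adjusted p of 0.398. This interval treats mice of 1 location nearly as independent. With 1 mean per location the limma estimate was the same but its SE was 0.79 (adjusted p = 0.711). The other probe set of Cyp7a1, which followed the brighter one over the mice with r = 0.973, gave 1.18 ± 0.62 (SE, adjusted p = 0.548). The estimate was 0.83 without the mice of high B (adjusted p = 0.697) or of low B (0.741), 2.05 without low A (0.239) and 2.24 without high C (0.0929), and between 1.17 and 1.78 when any single mouse was left out.

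Within each altitude Cyp7a1 was unevenly spread over the trapping locations. Locations held 76.3% of its variation among high altitude mice, the highest share of the 10 genes, and 58.9% of that among low altitude mice, where Nr1h4 had 59.0%. High C averaged 9.40 ± 1.13 against 12.21 ± 0.08 in high B (SD, n = 3 each), a difference of C minus B of -2.81 ± 0.65 (SE), and high C minus high A was -2.09 ± 0.65. At low altitude B averaged 8.44 ± 0.34 against 10.88 ± 0.52 in A (SD, n = 3 each), a difference of B minus A of -2.44 ± 0.65. The moderated F test over the 3 locations, adjusted over all probe sets, gave 0.152 at high and 0.522 at low altitude, so neither passed. Among the 16 probe sets 0 passed this test at high altitude, against 0.167% of all probe sets, and 0 at low altitude, against 0.0622%. At an unadjusted p under 0.05 there were 3 of 16 at high altitude (both of Cyp7a1, and Nr0b2) against 8.39% of all probe sets, and 4 of 16 at low altitude (both of Cyp7a1, Cyp8b1 and Nr1h4) against 6.25%. The probe sets of 1 gene share their transcript and are not separate counts.

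**Figure D2:**
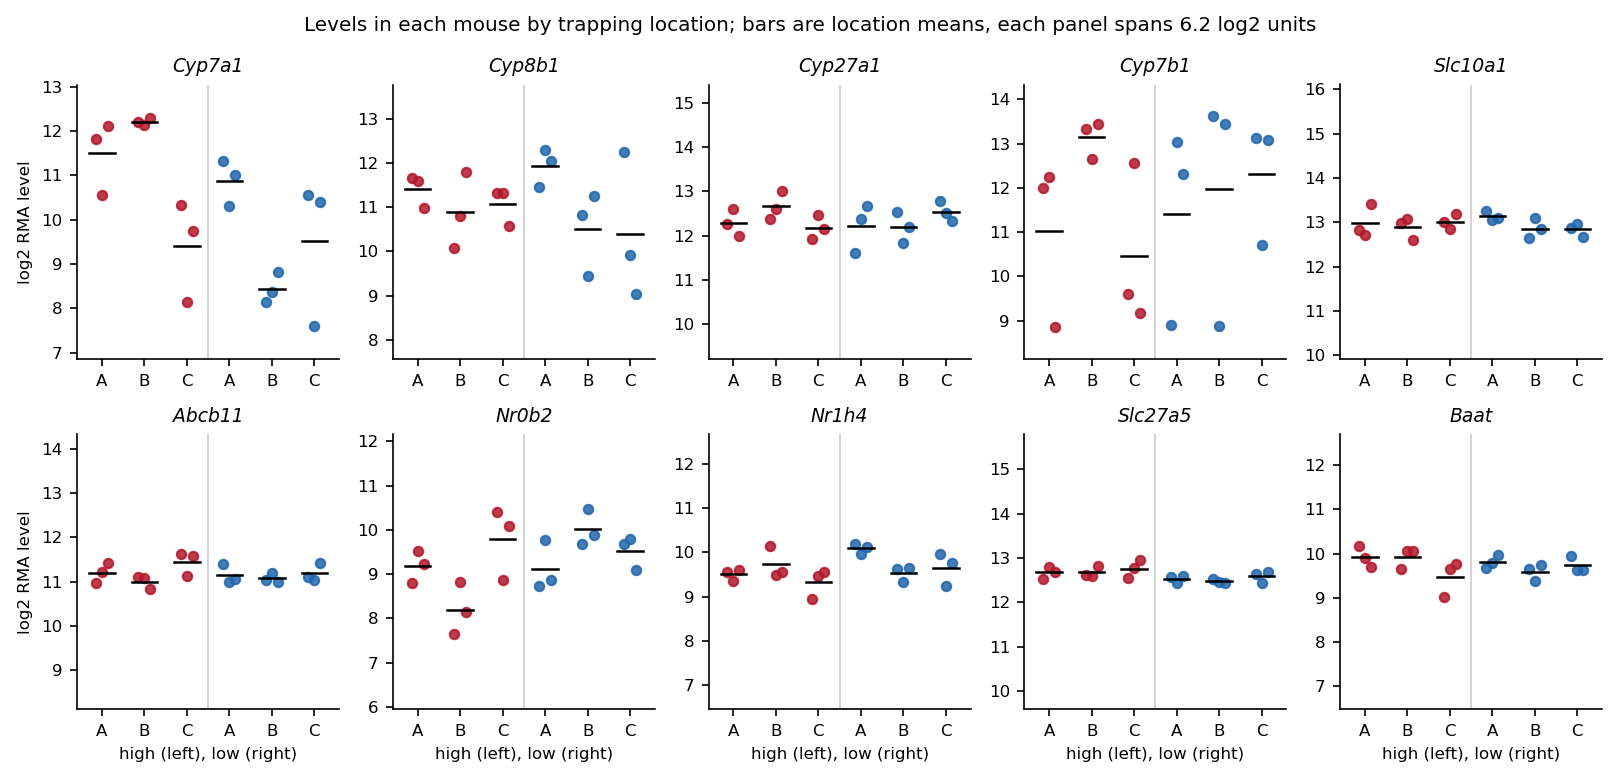
Levels of the 10 genes in every mouse. Each panel gives the log2 RMA level of the brightest probe set of a gene on the vertical axis, with red points for high altitude mice on the left and blue points for low altitude mice on the right, by location, and bars for location means of 3 mice; Cyp7a1 is high in all 3 mice of high B, and Cyp7b1 separates into a high and a low set of mice at both altitudes.

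Cyp8b1, the sterol hydroxylase that steers synthesis towards cholic acid, had 10.08 as its lowest, 11.33 as its median and 11.80 as its highest level at high altitude, against 9.04, 11.25 and 12.29 at low altitude. The altitudes thus overlapped, with the wider range at low altitude. The 3 lowest mice, low C3 at 9.04, low B2 at 9.45 and low C2 at 9.92, came from Lima. Cyp8b1 averaged 11.13 ± 0.56 in high and 10.95 ± 1.23 in low altitude mice (SD, n = 9 each), and the difference was 0.18 ± 0.40 (SE), with a 95% interval of -0.66 to 1.01 and an adjusted p of 0.937. Within low altitude, A averaged 11.94 ± 0.43, B 10.51 ± 0.94 and C 10.40 ± 1.66 (SD, n = 3 each), with an adjusted p over locations of 0.787. The sign of the altitude difference turned, to -0.04 without low B and -0.09 without low C.

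Cyp27a1 encodes a mitochondrial sterol hydroxylase that starts the alternative pathway and also trims the side chain in the classic one. Its level had a lowest value of 11.93, a median of 12.37 and a highest of 13.02 at high altitude, against 11.61, 12.39 and 12.78 at low altitude. The 2 distributions nearly coincided. The difference was 0.06 ± 0.16 (SE), with a 95% interval of -0.27 to 0.39 and an adjusted p of 0.949. A second probe set of Cyp27a1 was dim, at the 0.375th percentile of mean levels, and followed the brighter one with r = 0.550.

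Cyp7b1, the oxysterol hydroxylase of the alternative pathway and a gene with higher transcript levels in male than in female mouse liver, did not vary smoothly over the mice. In 12 mice its level lay between 11.99 and 13.61, in 5 mice between 8.85 and 9.61, and the remaining mouse, low C2, stood between them at 10.71. High A4, high C1 and high C3, at 8.85, 9.61 and 9.18, were the low mice of La Paz. Low A1 and low B2, at 8.90 and 8.87, were those of Lima. Both sets of mice occurred at both altitudes, and of the 6 locations only high B had all 3 mice (13.32, 12.65 and 13.44) in the upper set. The second bright probe set moved with the first (r = 0.998), while the dimmest, at the 15.8th percentile of mean levels, did not (r = 0.135). Cyp7b1 averaged 11.54 ± 1.81 in high and 11.90 ± 1.91 in low altitude mice (SD, n = 9 each), and the difference was -0.36 ± 0.78 (SE), with a 95% interval of -1.98 to 1.26 and an adjusted p of 0.935. A difference of more than 2-fold in either direction is inside this interval. It was 0.19 without the mice of high C.

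Slc27a5 encodes the bile acyl-CoA synthetase that prepares bile acids for conjugation. It had the smallest spread of the 10 genes and the smallest adjusted p for altitude among them. Its level was 12.53, 12.80 and 12.68 in high A, 12.61, 12.59 and 12.82 in high B and 12.54, 12.78 and 12.95 in high C. It was 12.57, 12.44 and 12.59 in low A, 12.53, 12.45 and 12.43 in low B and 12.64, 12.43 and 12.69 in low C. The 3 high location means lay above the 3 low ones, but single mice overlapped. High altitude averaged 12.70 ± 0.14 and low altitude 12.53 ± 0.10 (SD, n = 9 each), a difference of 0.17 ± 0.07 (SE), or 1.13-fold, with a 95% interval of 0.03 to 0.31 and an adjusted p of 0.348. It stayed positive, between 0.14 and 0.19, when any single mouse was left out. With 1 mean per location its limma adjusted p was 0.616. Baat, whose enzyme joins the activated bile acid to an amino acid, differed by 0.06 ± 0.12 (SE, 95% interval -0.20 to 0.32, adjusted p = 0.928). High C averaged 9.48 ± 0.40 for Baat, against 9.92 ± 0.23 in high A (SD, n = 3 each), and the location test did not pass (adjusted p = 0.624).

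The transporter genes differed little between altitudes and between mice. Slc10a1, the sodium-dependent importer of bile acids at the sinusoidal membrane, ran from 12.60 to 13.41 at high and from 12.64 to 13.26 at low altitude. Its difference was 0.02 ± 0.10 (SE), with a 95% interval of -0.19 to 0.23 and an adjusted p of 0.976, and a second probe set gave -0.000378 ± 0.11. Abcb11, the canalicular export pump, ran from 10.84 to 11.62 at high and from 10.99 to 11.42 at low altitude. Its difference was 0.08 ± 0.10 (SE), with a 95% interval of -0.14 to 0.29 and an adjusted p of 0.883. High C averaged 11.44 ± 0.27 for Abcb11, against 11.00 ± 0.15 in high B (SD, n = 3 each), and the location test did not pass (adjusted p = 0.610).

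The regulators had differences below 0 that did not pass the test. Nr1h4, the bile acid receptor, averaged 9.52 ± 0.31 in high and 9.76 ± 0.33 in low altitude mice (SD, n = 9 each), a difference of -0.24 ± 0.14 (SE, 95% interval -0.54 to 0.06, adjusted p = 0.613). At low altitude its highest 2 mice, low A1 at 10.18 and low A3 at 10.13, came from location A, whose mean was 10.09 ± 0.11, against 9.53 ± 0.18 in low B (SD, n = 3 each). Nr0b2 was 8.80, 9.52 and 9.22 in high A, 7.64, 8.81 and 8.15 in high B and 10.39, 8.87 and 10.08 in high C. It was 8.73, 9.78 and 8.86 in low A, 9.69, 10.47 and 9.89 in low B and 9.69, 9.80 and 9.10 in low C. The lowest 2 levels of Nr0b2 were both in high B, where Cyp7a1 was highest, and the altitudes overlapped. Nr0b2 averaged 9.05 ± 0.87 in high and 9.56 ± 0.55 in low altitude mice (SD, n = 9 each), a difference of -0.50 ± 0.31 (SE, 95% interval -1.15 to 0.14, adjusted p = 0.631). Between high locations, C minus B was 1.58 ± 0.39 (SE), and the F test over the 3 locations had an adjusted p of 0.218.

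The members differed widely in their spread over mice. The standard deviation over the 18 mice was 1.82 log2 units for Cyp7b1, 1.55 for Cyp7a1, 0.93 for Cyp8b1 and 0.75 for Nr0b2. The highest mouse was 27.1-fold above the lowest for Cyp7b1, 25.7-fold for Cyp7a1, 9.53-fold for Cyp8b1 and 7.13-fold for Nr0b2. For the other 6 genes this range was between 1.44-fold for Slc27a5 and 2.64-fold for Cyp27a1. Among all probe sets at or above the median level, the median standard deviation was 0.22 and the 95th percentile 0.59, so Cyp7b1, Cyp7a1, Cyp8b1 and Nr0b2 lay above the 95th percentile and Slc10a1 and Abcb11 (both 0.22) at the median. As RMA compresses ratios, these ranges describe the array signal.

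RNA integrity was unequal between locations, and so were markers of other cells. The Actb control probe sets, read as the level at the 3 prime end minus that at the 5 prime end, gave 1.40 ± 0.32 at high altitude and 1.21 ± 0.17 at low altitude (SD, n = 9 each), with 1.19 in high A, 1.70 in high B and 1.30 in high C. High B thus had both the highest mean of this measure and the highest Cyp7a1. High A, however, had the lower Actb value than high C but the higher Cyp7a1 mean (11.49 against 9.40). The low locations had 1.18 in A, 1.21 in B and 1.26 in C. Over the 18 mice the Actb measure and Cyp7a1 had r = 0.420 (permutation adjusted p = 0.79). With this measure as a covariate the Cyp7a1 difference was 1.10 ± 0.61 (SE, adjusted p = 0.572). All 10 Kupffer cell markers had a positive altitude difference, with a median of 0.30 and 0 called, and their mean level ran from 8.75 to 10.15 at high and from 8.53 to 9.72 at low altitude. Of 6 measured B and plasma cell markers 4 were positive and 2 called, Jchain and Ighm, and the mean level ran from 5.95 to 6.87 at high and from 5.40 to 5.88 at low altitude. Of 7 measured T and NK cell markers 6 were positive with 0 called between altitudes and 2, Ccl5 and Nkg7, called between high locations, and the mean level ran from 5.64 to 6.72 at high and from 5.31 to 5.91 at low altitude. The median difference was 0.00379 for 8 measured cholangiocyte markers and -0.05 for 7 enterocyte markers, with 0 called. The part of these measures in the altitude and location values was not tested. Over the 18 mice, 45 correlations of 9 members (without Cyp7b1) with Dbp, Arntl, the Actb measure and the Kupffer and T and NK levels were computed after the data had been seen. After adjustment over the 45, 0 passed (lowest permutation adjusted p = 0.79 for Pearson's r and 0.602 for Spearman's rho). The B and plasma cell level was not among these measures.

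The rest of the pathway was read from lists of other genes. Of 15 measured enzymes of bile acid synthesis other than the members, 3 had a positive and 12 a negative altitude difference, with a median of -0.11 and 0 called. Akr1c14, a hydroxysteroid dehydrogenase, came closest, with 10.87 ± 0.57 in high and 11.78 ± 0.36 in low altitude mice (SD, n = 9 each), a difference of -0.91 ± 0.21 (SE, adjusted p = 0.0668). Its level ran from 9.53 in high C1 to 11.44 at high altitude and from 11.25 to 12.28 at low altitude, so the altitudes overlapped. Akr1c14 was called, with an adjusted p of 0.0385, without high C1 and, with 0.0494, without low A1. Array weights (0.0402) and centring on the brightest 25% of probe sets (0.0255) also gave a call. In the other 30 of the 34 alternatives Akr1c14 was not called, with an adjusted p of up to 0.286. Its difference ran from -1.02 to -0.69 over all 34. Acot8, a peroxisomal thioesterase, had a difference of -0.35 (adjusted p = 0.179), and Cyp2c70, which makes muricholic acids in mice, 0.29 (adjusted p = 0.306).

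Of 15 other transporter genes 8 had a positive and 7 a negative difference; the median was 0.19 and 0 were called. Abcc4, a basolateral efflux pump, had 4.72 as its lowest, 5.72 as its median and 7.63 as its highest level at high altitude, against 4.23, 4.75 and 5.92 at low altitude. High C1 had the highest Abcc4 level and the 3 mice of high B, at 5.15, 4.80 and 4.72, had the lowest of the high altitude mice. The difference of Abcc4 was 0.93 ± 0.33 (SE, adjusted p = 0.297), and it was 1.41 and called (adjusted p = 0.0416) without the mice of high B. In the other 33 of the 34 alternatives Abcc4 was not called, with an adjusted p of up to 0.625. The uptake transporter gene Slco1b2 had -0.27 (adjusted p = 0.252) and the phospholipid exporter gene Abcb4 0.27 (adjusted p = 0.286). Of 14 measured regulators 9 had a positive and 5 a negative difference; the median was 0.11 and 0 were called. Among these Foxa2 had a difference of 0.43 (adjusted p = 0.217), Nr5a2, a nuclear receptor known to bind the Cyp7a1 promoter, -0.32 (adjusted p = 0.258), and the coactivator gene Ppargc1a 0.71 (adjusted p = 0.500).

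**Figure D3:**
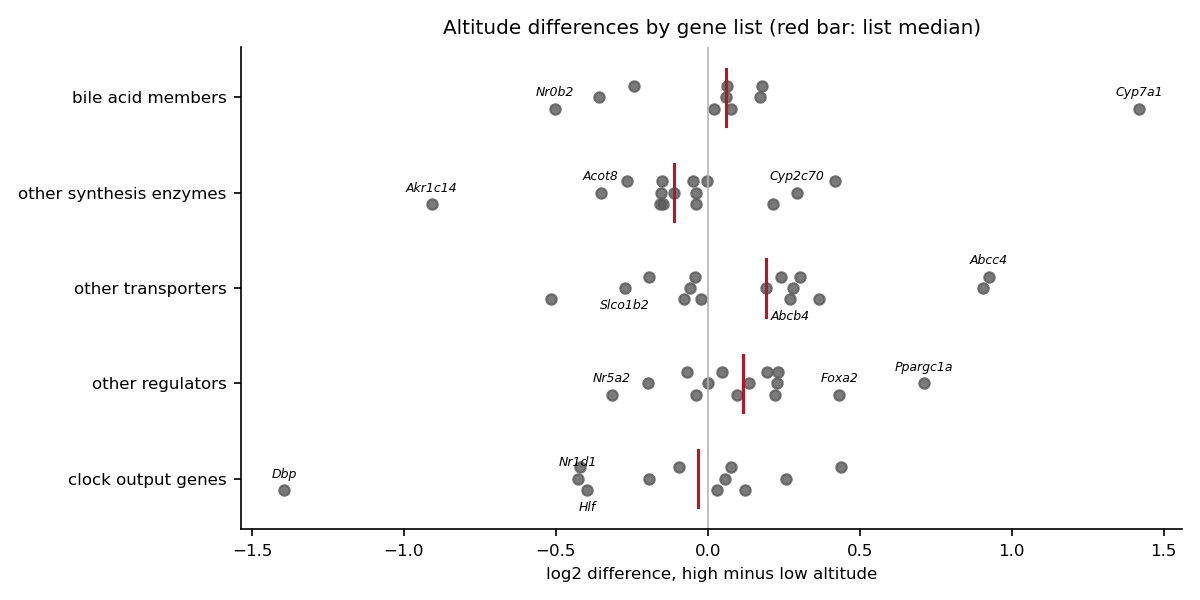
Altitude differences of the members and of 4 lists of related genes. Each point is a gene by its brightest probe set, placed by its log2 difference of high minus low altitude, vertical offsets only separate points, and red bars mark list medians; the medians lie between -0.11 for other synthesis enzymes and 0.19 for other transporters.

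Clock genes and their outputs were measured because Cyp7a1 is known to cycle through the day. Of 12 such genes 6 had a positive and 6 a negative difference; the median was -0.03 and 0 were called. The list holds core clock genes, among them Arntl and Npas2, besides outputs, and these need not move the same way. Its signs and median therefore do not measure time of day, which was not tested. Dbp, a transcription factor that cycles strongly in liver, ran from 5.06 to 10.53 at high and from 6.19 to 10.94 at low altitude. The high levels at high altitude were those of high A4 (10.53) and high B1 (9.82), while the other 7 mice lay at or under 6.85. High A4 and high B1 were also the lowest of the high altitude mice for Arntl (6.67 and 6.80). At low altitude 6 of 9 mice lay between 8.90 and 10.94 and the other 3 between 6.19 and 6.30. The altitude difference of Dbp was -1.39 ± 0.75 (SE, adjusted p = 0.564). Hlf had -0.40 (adjusted p = 0.190) and Nr1d1 -0.43 (adjusted p = 0.406). The correlation of Dbp with Cyp7a1 over the 18 mice was 0.0633 (permutation adjusted p = 0.942 over 45 relations, rho = -0.133). Within altitudes r was 0.274 at high and 0.324 at low altitude, where it was not tested.

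Whether the members moved together from mouse to mouse was asked with all 45 pairs of genes. The 9 pairs of Cyp7b1 were set apart, since its levels fall into separate sets of mice. Of the 36 other pairs 5 passed a permutation test of Pearson's r adjusted over the 45 pairs. These calls stand at the threshold: adjusted over the 36 pairs alone, an alternative chosen after the data had been seen, 0 passed (lowest permutation adjusted p = 0.059). With Spearman's rho 1 of the 36 passed under either adjustment (Cyp7a1 and Nr0b2), and after location means were subtracted 0 passed while 7 had an unadjusted p under 0.05. Mice of 1 location are not independent of each other, which the pooled permutations do not allow for. The values within altitudes and with location means subtracted therefore stand beside each pooled value of a pair of members.

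Cyp7a1 and Nr0b2 had opposite levels over the mice, with r = -0.643 (permutation p = 0.0039, adjusted 0.0351) and rho = -0.750 (permutation p = 0.00055, adjusted 0.0248). Within altitudes r was -0.501 among the 9 high and -0.742 among the 9 low altitude mice. The 3 mice of high B combined the highest Cyp7a1 with Nr0b2 at 7.64, 8.81 and 8.15, and the 3 mice of low B combined Cyp7a1 at 8.14, 8.37 and 8.81 with Nr0b2 at 9.69, 10.47 and 9.89. High C2 departed from this, with both genes low (Cyp7a1 at 8.13 and Nr0b2 at 8.87), whereas low C2 followed it (7.61 and 9.80). These 2 mice were the farthest from the median of Cyp7a1, and r without them was -0.780. With location means subtracted r was 0.01 (permutation p = 0.979), so the relation lay between locations and was not seen among the mice of a location. It did not pass without high B1, high B3, low A1, low B2 or low B3, with r between -0.75 and -0.60 over all mice left out in turn.

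**Figure D4:**
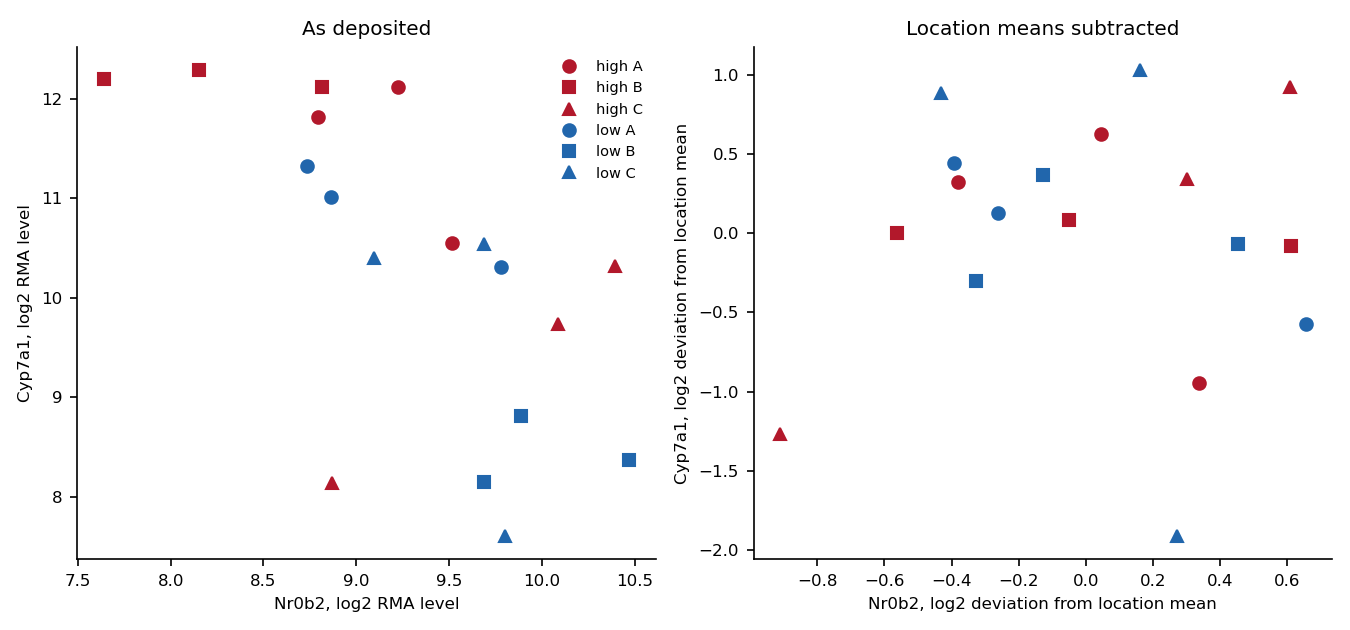
Cyp7a1 against Nr0b2 in the 18 mice. Both axes are log2 RMA levels on the left and log2 deviations from the mean of the mouse's location on the right, red for high and blue for low altitude, with a symbol for each location letter; r is -0.643 on the left and 0.01 on the right.

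The other 4 pairs that passed joined Cyp27a1, Abcb11, Baat and Slc10a1. The pairs that include Cyp27a1 are not separate from the sets of mice seen for Cyp7b1. The 5 mice lowest for Cyp7b1 were also the 5 lowest for Cyp27a1. Their Cyp27a1 levels were 11.98 in high A4, 11.93 in high C1, 12.14 in high C3, 11.61 in low A1 and 11.83 in low B2. For Baat these mice did not stand apart. They had 9.70, 9.02, 9.77, 9.67 and 9.37 in that order, and low C3 (9.62) and high B1 (9.64) lay below some of them. The part of the 5 mice in the 4 pairs was not tested. Cyp27a1 and Abcb11 had r = -0.654 (permutation p = 0.00312, adjusted 0.0351; rho = -0.517, adjusted 0.159). Within altitudes this pair had -0.810 at high and -0.569 at low altitude, and it had -0.733 with location means subtracted. Of the 5 pairs it had the strongest relation within locations, though that too missed the adjusted threshold (permutation adjusted p = 0.0664). Cyp27a1 and Slc10a1 had r = -0.610 (permutation p = 0.0071, adjusted 0.0461; rho = -0.482, adjusted 0.200), with -0.740 at high and -0.497 at low altitude and -0.642 with location means subtracted. Cyp27a1 and Baat had r = 0.603 (permutation p = 0.0082, adjusted 0.0461; rho = 0.542, adjusted 0.159), with 0.631 at high and 0.652 at low altitude and 0.630 with location means subtracted. Abcb11 and Baat had r = -0.599 (permutation p = 0.00787, adjusted 0.0461; rho = -0.509, adjusted 0.163), with -0.725 at high and -0.369 at low altitude and -0.589 with location means subtracted.

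For these 4 pairs the sign was the same at both altitudes and within locations. Without the 2 mice farthest from the median of the first gene, r was -0.544 for Cyp27a1 and Abcb11, -0.420 for Cyp27a1 and Slc10a1, 0.635 for Cyp27a1 and Baat and -0.484 for Abcb11 and Baat. For Cyp27a1 and Slc10a1, Cyp27a1 and Baat, and Abcb11 and Baat the call was lost in 14 of the 18 settings that left out a single mouse, and for Cyp27a1 and Abcb11 in 4. Over these settings r ran from -0.67 to -0.52 for Cyp27a1 and Slc10a1, from 0.55 to 0.68 for Cyp27a1 and Baat, from -0.69 to -0.41 for Abcb11 and Baat and from -0.69 to -0.58 for Cyp27a1 and Abcb11. Leaving out each of the 18 mice in turn gave 0 to 4 pairs past the threshold, with 0 without high B3 and 1 without high A4, low A1 or low B3. The 2 bile acid transporters, Slc10a1 and Abcb11, had r = 0.460 and rho = 0.439, which did not pass (permutation adjusted p = 0.205 and 0.259). For this pair r was 0.648 at high and 0.109 at low altitude, and 0.523 with location means subtracted. The 2 enzymes that follow each other in conjugation, Slc27a5 and Baat, had r = 0.248 (permutation adjusted p = 0.505; rho = 0.228), with 0.183 at high and 0.332 at low altitude and 0.430 with location means subtracted. Cyp7a1 and Cyp8b1 of the classic pathway had r = 0.299 (permutation adjusted p = 0.445; rho = 0.282), with -0.111 at high and 0.513 at low altitude and 0.095 with location means subtracted.

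**Figure D5:**
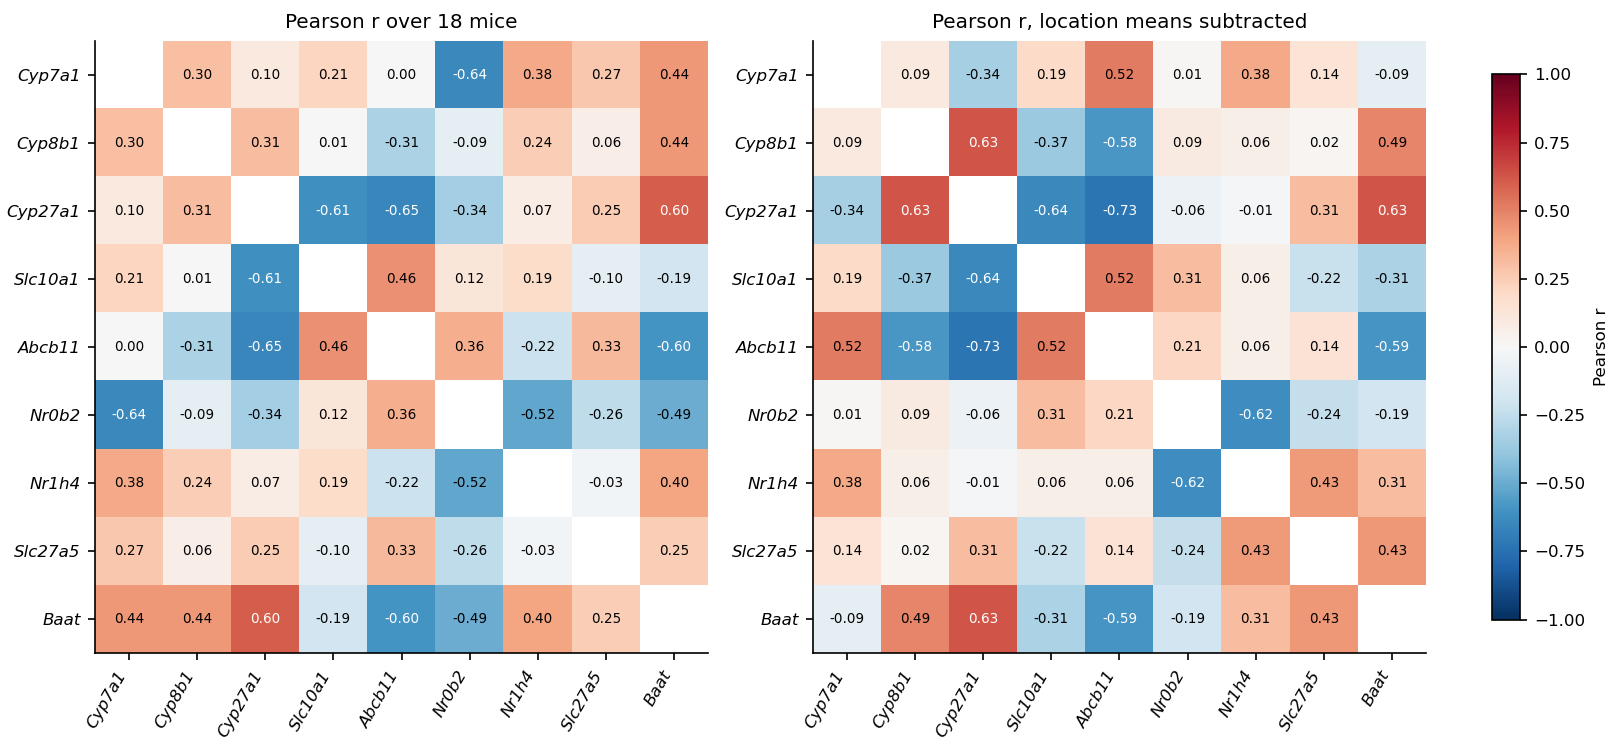
Correlations of 9 members over the 18 mice. Each cell gives Pearson's r of a pair, as deposited on the left and with location means subtracted on the right, coloured from -1 (blue) to 1 (red); Cyp7a1 and Nr0b2 have -0.64 on the left and 0.01 on the right, whereas Cyp27a1 and Abcb11 have -0.65 and -0.73.

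Nr1h4 and its target Nr0b2 had r = -0.522 (permutation adjusted p = 0.133; rho = -0.435), with -0.783 at high and -0.746 at low altitude and -0.618 with location means subtracted (permutation p = 0.0345, adjusted 0.149). Cyp7a1 and Nr1h4 had r = 0.378 over all mice (permutation adjusted p = 0.323; rho = 0.338), with 0.407 at high and 0.935 at low altitude and 0.376 with location means subtracted; the difference between altitudes was not tested. Over all 18 mice 3 of the 9 pairs of Cyp7b1 passed, those with Cyp27a1, Slc10a1 and Abcb11, and the pair with Slc10a1 also with rho and with location means subtracted. Of all 45 pairs, Cyp7b1 and Slc10a1 was the only 1 that passed with location means subtracted (r = -0.767, permutation adjusted p = 0.00193). That value also spans the separate sets of mice. Other than that value, no r over all 18 mice is given for the pairs of Cyp7b1, since its levels lie in separate sets of mice. In the 12 mice with Cyp7b1 in the upper set 0 of the 9 passed, with r between -0.521 for Baat and 0.235 for Nr1h4 and permutation adjusted p over the 9 pairs between 0.764 and 0.857. The pair with Slc10a1 had r = -0.324 in these 12 mice. This choice of mice was made after the data had been seen. It was made on Cyp7b1 itself and kept only its levels from 11.99 to 13.61, in fewer mice. The absence of calls there therefore cannot show that the pairs are unrelated. In the other 6 mice r was between -0.742 for Slc10a1 and 0.826 for Cyp27a1.

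Among the 12222 named genes at or above the median level, the genes other than the members whose levels were most like those of Cyp7a1 over the 18 mice were Gtf2i (r = 0.822), As3mt (0.798), Aopep (0.774), Dpt (0.773) and Oxsr1 (0.761). For Cyp8b1 they were B4galt7 (r = 0.785), Tm2d2 (0.736), Med8 (0.727), 1500002C15Rik (0.725) and Actr5 (0.711), and for Nr0b2 Grm2 (r = 0.808), Mdm4 (0.767), Oprm1 (0.746), Clcn6 (0.744) and Uba3 (0.741). They were picked as the highest of many values and are a description with no test.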

How the data were processed

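Total RNA of 18 livers was hybridised as biotinylated cRNA to Affymetrix mouse arrays, 1 per mouse, per the labels' protocols. The deposited table holds 45101 probe sets as log2 values, which the authors obtained by RMA with the affy package, per the submitters' processing notes (no versions given). RMA subtracts background, quantile normalizes between arrays and summarises probes, which compresses dim probe sets. The sources used here give no detection calls, scan dates or genome build, so no coordinates are printed.

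After removal of 64 control probe sets, 45037 were tested. GEO's platform annotation gave 34945 of them 1 symbol, 932 several and 9160 none, and 0 symbols needed an update through RefSeq, whose table held the Entrez number of 34741. The brightest single-symbol probe set stood for a gene.

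Groups came from the sample titles. Altitude was tested with limma 3.58.1 in R 4.3.3, with location as a random block (consensus correlation -0.00189 by duplicateCorrelation), eBayes with a trend, two-sided, and Benjamini-Hochberg adjustment over all 45037 probe sets at 0.05. Since the block had so little weight, p-values treat mice of 1 location nearly as independent. Locations were tested with a moderated F in a fit of 6 location means. Correlations over mice had two-sided permutation p-values from 100000 resamples, adjusted over 45 pairs, and with location means subtracted from all 46656 permutations within locations, in Python 3.11.15 with numpy 2.4.6 and scipy 1.17.1. The fits were tested on simulated data. Mouse numbers did not pair the samples: deviations of same-numbered mice of different locations correlated at -0.0130 on average over 40 pairs, and those of other mice at 0.00586 over 95 pairs.

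The members and gene lists were chosen with earlier results of these data known. Named are all members, and per list of other pathway and clock genes the 3 with the smallest altitude p and any past a test. Marker genes are named where called. Some genes of the lists are not analysed here, and each count gives the number measured. Alternatives covered the block, the gene rule, filters, centring, array weights, RNA integrity, mouse number and leaving out mice and locations.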

Additional observations from a re-analysis of the deposited data

Results flagged for a closer look

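Among 32 groups of 9 mice, given by the 16 probe sets of the bile acid genes at each altitude, 1 held a sample far from the others by the gap between it and its nearest neighbour. The brighter probe set of Baat, the enzyme that conjugates bile acids, was 9.02 in high C1, the lowest of the 9 high altitude mice, while the next lowest was 9.64. Chance alone would give about 1 such group in 20.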

How the results depend on the processing

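No bile acid gene was called between altitudes, between high or between low locations in the fits reported or in any alternative run, so the limits below touch directions and background counts. The altitude differences of Cyp7a1, Slc27a5, Nr0b2 and Nr1h4 kept their sign in all 34 alternatives. Those that changed only the location block, the probe sets tested or the trend, or took 1 mean per location, leave the estimate as it is. They could not turn a sign. Without single mice the difference ran from -0.0600 to 0.35 for Cyp8b1, from -0.0290 to 0.12 for Cyp27a1 and from -0.0365 to 0.0647 for Slc10a1. Without whole locations the sign turned for Cyp8b1 (-0.0423 without low B, -0.0941 without low C), Cyp27a1 (-0.0855 without high B, -0.00491 without low B), Slc10a1 (-0.00472 without high C, -0.0248 without low B, -0.0336 without low C), Abcb11 (-0.0369 without high C), Baat (-0.0136 without high A, -0.00895 without high B) and Cyp7b1 (0.19 without high C). With the Actb covariate Cyp27a1 had -0.0180. With the mouse number as a replicate block Cyp7b1 had 0.0263 and Slc10a1 -0.0426, and 64 probe sets were called for altitude.

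The 134 probe sets called for altitude became 0 with 1 mean per location, 66 with 1 probe set per gene (fewer were tested), 251 with array weights, 369 with arrays centred on the brightest 25%, 205 with the Actb covariate, 82 without high A, 227 without high B, 78 without low B, 39 without low C, and 49 to 163 without single mice. The 75 called between high locations became 38 with the 9 arrays alone, 43 with arrays centred on the median, 23 with the Actb covariate, and 31 to 104 without single mice. The 28 called between low locations became 13 with 1 probe set per gene and 13 to 62 without single mice. The 5 correlated pairs became 1 with Spearman's rho, 0 with location means subtracted, 0 when adjusted over the 36 pairs without Cyp7b1, 2 with the mean of all probe sets of a gene, and 0 to 4 without single mice. Cyp7a1 and Nr0b2 had r = -0.581 with altitude means subtracted, where the pair was not called. The pair turned from r = -0.643 to 0.00955 with location means subtracted. Other than through the construction named, the cause was not tested. Centring moved the median altitude difference of all probe sets by -0.01 and 0.01. Without detection calls, absence of dim transcripts cannot be judged.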

Other observations

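The genes most like Cyp7b1 over the 18 mice, a search added after the data had been seen, were Zfp771 (Spearman's rho 0.907), Crp (0.899), Saa1 (0.897), Spin1 (0.887) and C6 (0.882) among 12222 named genes at or above the median level. Crp and Saa1 encode acute phase proteins and C6 a complement component. C6 ran from 7.30 to 12.41 on the log2 scale over the mice, and 5 of its 6 lowest mice were among the 6 lowest for Cyp7b1. Hsd3b5 and Elovl3, known for higher levels in male than in female mouse liver, were named after their values had been seen. Hsd3b5 ran from 4.77 to 11.59 (rho 0.598 with Cyp7b1) and Elovl3 from 4.19 to 12.25 (rho 0.697), and each shared 5 of its 6 lowest mice with Cyp7b1. These values are the highest of many or were picked by eye, so no test is attached.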
